A study of Nicotiana tabacum with 54 samples.

Results

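NtGSTU20 and NtGSTU35 are a pair of tobacco glutathione S-transferase genes of the Tau class, listed by the study as the products of a segment duplication that left the copies on different chromosomes. The 2 genes were found through their identifiers, Nitab4.5_0000505g0100 for NtGSTU20 and Nitab4.5_0000639g0240 for NtGSTU35, among the 69500 genes of the deposited tables. They are 2 of 59 listed NtGST members, 2 of 40 Tau members and 1 of 13 listed duplicated pairs. The pair was singled out with its tissue levels already known, so the tests between tissues below describe those levels.

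Transcripts were measured by RNA sequencing of total RNA from root, stalk and leaf of Nicotiana tabacum plants whose flower head had been cut off (topping). The 6 materials carry the label names GDH88, VxG88, Va116, Basma, HxB and Hongda, with 3 libraries for each material and tissue, 18 per tissue and 54 in all. In the labels of HxB and VxG88 the x is a multiplication sign, as written for a cross, and the labels name no parents. If these are crosses of the others, the 6 materials are not independent units in the counts and tests over materials. All plants had been topped, so there is no untopped group, and each replicate took tissue of several plants. Columns of one group are numbered 1 to 3 in the files while its samples are lettered, with no key between the systems, so libraries are identified below by column, as in Va116 1. The values are FPKM, fragments per kilobase of transcript scaled to the fragment total of the library, which allows levels of different genes to be set side by side. In whole tissues, fewer cells that express a gene and less RNA per cell cannot be told apart.

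Values summed to 768375 to 832327 per library, and 30198 to 37004 genes reached 1 FPKM. Without read counts in the tables, depth is unknown. No table used here pairs the identifiers of other genes with names, so the tissues were not checked against marker genes. Of the 54 libraries, 49 resembled their own material most, over genes called among materials outside the library's own tissue, and 5 were closest to another one (leaf VxG88 2, stalk GDH88 1, stalk VxG88 1, root Basma 1 and root GDH88 2). Results were also computed without those 5.

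Glutathione S-transferases join the tripeptide glutathione to reactive or foreign compounds, which makes these more soluble and marks them for transport into the vacuole. The Tau class is particular to plants, is the largest class in most of them, and is known for detoxification of herbicides and for transcripts that respond to wounding, hormones and oxidative stress. After a gene is duplicated both copies can keep the old expression pattern, or one copy can lose or gain a tissue.

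Of the short elements that a promoter search by the study lists upstream of the copies, 5 sequences are listed for both. They are shown because they are the upstream letters the copies have in common, and every letter of an element is in capitals.
methyl jasmonate element: TGACG
methyl jasmonate element, other strand: CGTCA
Box 4: ATTAAT
light-related TCCC element: TCTCCCT
light-related GT1 element: GGTTAA
The second is the first read on the opposite strand. The first is known as the core of as-1 type elements, which TGA factors of the bZIP family bind and which occur in promoters of plant GST genes. The auxin-related TGA-element AACGAC and the MYB site CAACTG are listed for NtGSTU20 only, and the abscisic acid related element ACGTG for NtGSTU35 only. Such short letters occur often by their length alone, the upstream regions themselves were not searched here, and nothing on the levels below rests on these entries.

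NtGSTU20 was a transcript of the root. In root its lowest, median and highest values were 20.06, 161 and 422 FPKM over 18 libraries. In stalk these were 0, 0.16 and 59.38 FPKM, and 15 of 18 libraries lay under 1 FPKM. In leaf they were 0, 0.02 and 0.43 FPKM, and 9 of 18 libraries were listed at 0. The root and leaf values did not overlap, and root and stalk overlapped through the single stalk library Va116 1. Within each of the 6 materials, all 3 root libraries lay above all 3 leaf and all 3 stalk libraries. In Va116 the stalk reached 59.38 FPKM and the root values began at 117.54 FPKM.

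NtGSTU35 was present in every library and was higher in root. Its root values reached from 8.76 to 295 FPKM (median 77.9). Its stalk values reached from 3.55 to 142 FPKM (median 10.1). Its leaf values reached from 4.76 to 39 FPKM (median 8.71). The tissues overlapped over all libraries, and the root libraries lay above the leaf libraries of the same material in 4 of 6 materials. Against stalk the count was also 4 of 6.

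**Figure D1:**
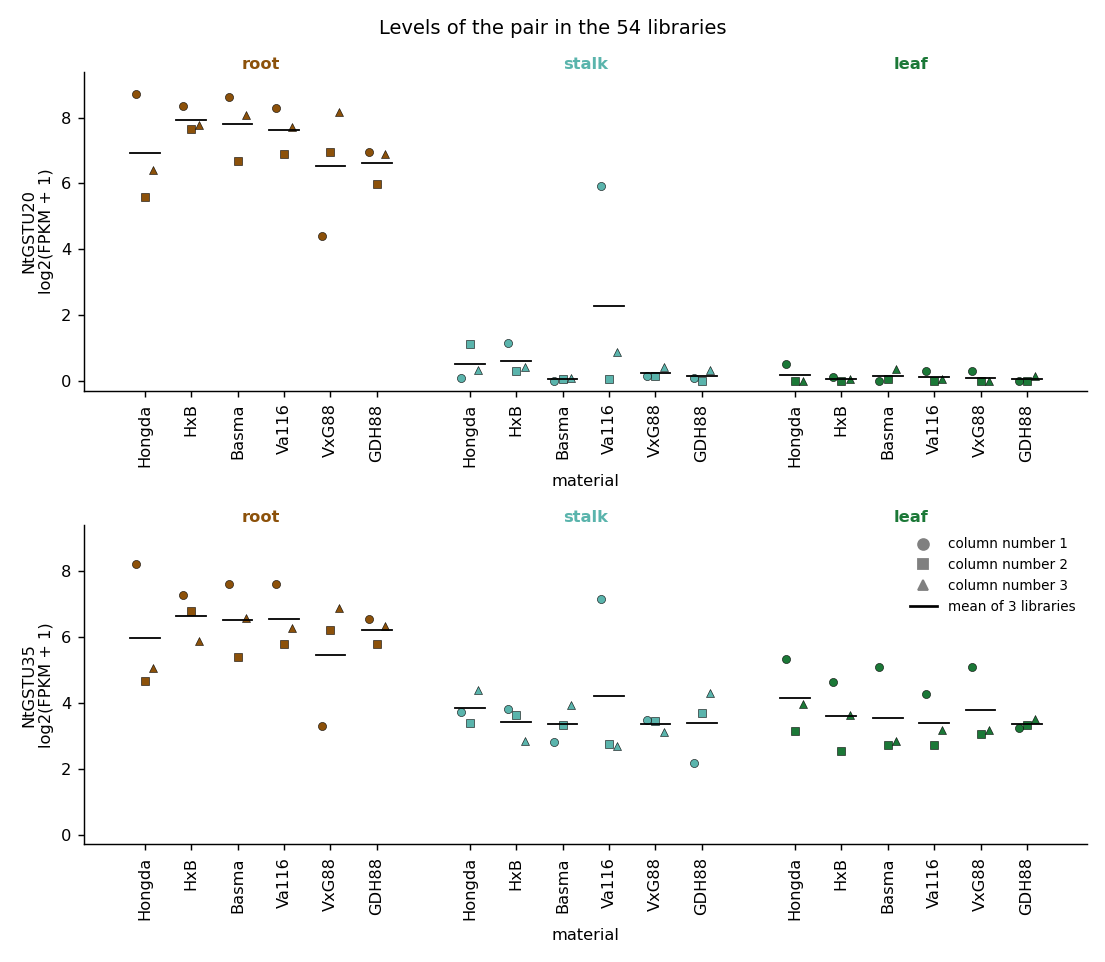
Levels of NtGSTU20 (upper panel) and NtGSTU35 (lower panel) as log2(FPKM + 1) in root, stalk and leaf of the 6 materials, 1 point per library and a bar at the mean of 3 libraries. NtGSTU20 lies near 0 in leaf and in all stalk libraries except Va116 1 (59.38 FPKM), while NtGSTU35 has at least 3.55 FPKM in every library.

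On the log2(FPKM + 1) scale, NtGSTU20 rose by 7.12 (SE 0.328) in root over leaf and by 6.59 (SE 0.328) in root over stalk in the limma fit, with adjusted p of 1.96e-25 and 1.73e-23. Of the 42820 genes tested these were ranks 28 and 32 from the top, and both were rank 1 among 39 Tau members tested. NtGSTU35 rose by 2.60 (SE 0.351, adjusted p 5.44e-09) in root over leaf, at rank 8 among the Tau members. In root over stalk it rose by 2.64 (SE 0.351, adjusted p 5.38e-09), at rank 16. Of all genes tested, 36.4% were higher and 37.0% lower in root than in leaf, and 26.5% were higher and 40.6% lower in root than in stalk. Both copies were higher in root in 6 of 6 materials in both comparisons. Without the 5 libraries closest to another material the differences were 7.11 and 6.53 for NtGSTU20 and 2.51 and 2.49 for NtGSTU35, all called. The size for NtGSTU20 depends on the constant added to the near-zero values, and it was 9.90 in root over leaf with a constant of 0.1 and 11.98 with 0.01.

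Stalk and leaf differed little for either copy. NtGSTU20 had a difference of 0.53 (SE 0.328, adjusted p 0.147) and NtGSTU35 one of -0.04 (SE 0.351, adjusted p 0.941), while 37.2% of all genes were higher and 31.3% lower in stalk than in leaf. Without stalk library Va116 1 the values were 0.23 (adjusted p 0.390) for NtGSTU20 and -0.26 (adjusted p 0.488) for NtGSTU35. The value for NtGSTU20 rests on the added constant: with 0.1 in place of 1 it was 1.29 (adjusted p 0.0131), among values that are nearly all below 1 FPKM.

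The ratio between the copies separated root from the other tissues. NtGSTU20 was above NtGSTU35 in 18 of 18 root libraries, by a ratio of 1.13 to 3.78 (median 2.07, mean 2.11 ± 0.65, SD, n = 18). It was below NtGSTU35 in every stalk library, where the ratio had a median of 0.0139 and a highest value of 0.418, and in every leaf library, where the median was 0.00188 and the highest value 0.0472. Of the FPKM of both copies summed over libraries, NtGSTU20 made up 66.2% for root, 16.9% for stalk and 0.592% for leaf. The stalk share fell to 2.84% when library Va116 1 was left out. In the 9 leaf libraries where NtGSTU20 was listed at 0, NtGSTU35 had 4.76 to 33.46 FPKM, so the values of the copies were distinct there. No source used here says how fragments that match both copies were assigned.

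**Figure D2:**
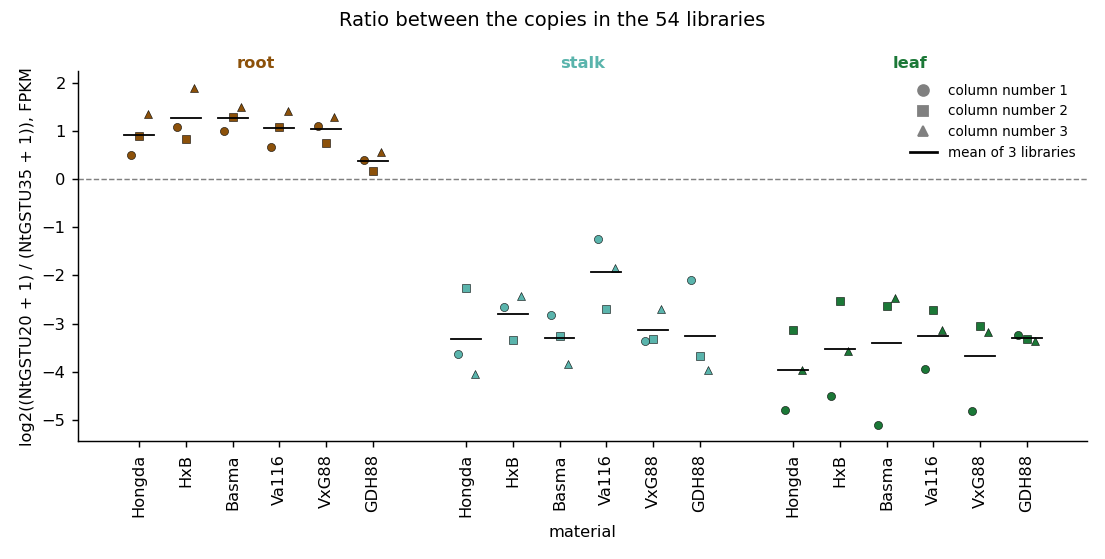
The log2 ratio of NtGSTU20 + 1 to NtGSTU35 + 1 (FPKM) in root, stalk and leaf of the 6 materials, 1 point per library and a bar at the mean of 3 libraries. All 18 root libraries lie above the dashed line of equal levels and all stalk and leaf libraries below it.

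The log2 ratio of NtGSTU20 to NtGSTU35 averaged 1.00 over materials in root and -3.53 in leaf, a difference of 4.53 (SE 0.185, n = 6 materials). Root and stalk, with -2.96 in stalk, differed by 3.95 (SE 0.229). Each difference had the same sign in 6 of 6 materials, with an exact two-sided sign-flip p of 0.0312 and an adjusted p of 0.0312 over the 3 comparisons, the smallest p that 6 materials can give. The stalk minus leaf difference was 0.57 (SE 0.193, the same exact p) and positive in 6 of 6 materials, but it was -0.03 (exact adjusted p 0.969) without the libraries of column number 1. In those leaf libraries NtGSTU35 was high, with a median of 28.7 FPKM for column number 1 against 6.42 FPKM for column number 2 and 9.24 FPKM for column number 3. Over all genes, deviations from the group means correlated between equally numbered columns of different materials with a mean r of 0.13 in root, -0.02 in stalk and 0.35 in leaf. Whether the column numbers mark a batch is not stated, and their part in the difference was not tested. The stalk minus leaf call was also lost with a replicate block (permutation adjusted p 0.0513, against 0.0395 without it), with a constant of 0.1 or 0.01 (exact adjusted p 0.0625) and without the 5 libraries closest to another material (exact adjusted p 0.0938).

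Among the 13 listed pairs, the change of the ratio between root and leaf was rank 3 in size for NtGSTU20 and NtGSTU35, at 4.53 (SD over materials 0.452). NtGSTU3 and NtGSTU24 had the largest, 9.62 (SD 0.305), and NtGSTU29 and NtGSTU33 the smallest, 0.08 (SD 0.464). In NtGSTU3 and NtGSTU24 the copies moved in opposite directions, with NtGSTU3 higher by 3.604 and NtGSTU24 lower (log2 fold change -6.01) in root than in leaf. In the pair described here both copies were higher in root. Root over stalk put NtGSTU20 and NtGSTU35 second of 13, at 3.95.

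Within the Tau class, 28 of 39 members tested were higher and 8 lower in root than in leaf, with a median log2 fold change of 1.28 against -0.01 over all genes. In root over stalk 32 were higher and 4 lower, with a median of 2.21 against -0.13. In stalk over leaf 4 were higher and 17 lower, with a median of -0.32 against 0.05. Over all genes tested, 36.4% were higher and 37.0% lower in root over leaf. These shares were 26.5% and 40.6% in root over stalk, and 37.2% and 31.3% in stalk over leaf. By mean FPKM in root NtGSTU20 (191 ± 121 FPKM, SD, n = 18) was rank 2 of 40 Tau members, after NtGSTU11 (300 ± 71.8) and before NtGSTU40 (183 ± 112). NtGSTU11 was above NtGSTU20 in 16 of 18 root libraries and NtGSTU40 in 9 of 18, so only the first of these neighbours stood apart in most libraries. NtGSTU35 (97.4 ± 72.4) was rank 7, between NtGSTU27 (131 ± 54.1) and NtGSTU10 (96.2 ± 34.9), each of them above it in 9 of 18. In leaf NtGSTU35 was rank 12, between NtGSTU10 (20.8 ± 4.36) and NtGSTU32 (13.5 ± 9.12), and NtGSTU20 was rank 31, between NtGSTU29 (median 0.09 FPKM) and NtGSTU3 (median 0.02 FPKM). In stalk NtGSTU35 (17.6 ± 31.4) was rank 8, between NtGSTU15 (22.1 ± 65.1) and NtGSTU24 (14.2 ± 4.88), and NtGSTU20 was rank 15, between NtGSTU37 and NtGSTU19. These stalk means include library Va116 1, and without it NtGSTU35 averaged 10.3 FPKM and NtGSTU20 0.301 FPKM. The order by mean did not always hold library by library. NtGSTU15 was above NtGSTU35 in 5 of 18 stalk libraries and NtGSTU24 in 13. NtGSTU37 was above NtGSTU20 in 14 of 18 stalk libraries and NtGSTU19 in 15. In leaf NtGSTU10 was above NtGSTU35 in 15 of 18 libraries and NtGSTU32 in 10. In root NtGSTU20 made up 0.870% to 23.1% of the summed FPKM of the class (median 10.7%), and NtGSTU35 0.380% to 14.3% (median 4.79%).

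**Figure D3:**
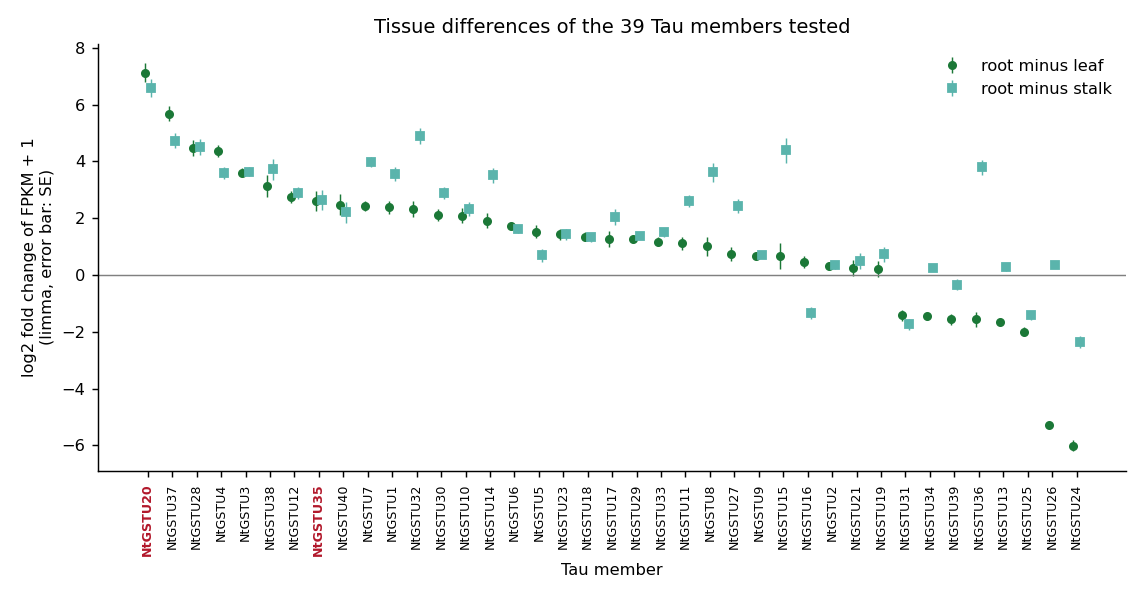
Log2 fold changes of FPKM + 1 in root over leaf (circles) and root over stalk (squares) for the 39 Tau members tested, ordered by the value in root over leaf, with SE bars from limma. NtGSTU20, at 7.12 and 6.59, has the largest value of the class in both, and NtGSTU35 lies at 2.60 and 2.64.

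Both copies varied widely among root libraries of one material. In root, Hongda had 421.54, 47.09 and 84.44 FPKM of NtGSTU20 (libraries 1, 2 and 3) and 294.93, 24.61 and 32.17 FPKM of NtGSTU35. HxB root had 328.61, 198.86 and 216.63 FPKM of NtGSTU20 and 154.64, 110.41 and 57.37 FPKM of NtGSTU35. Basma root had 393.91, 101.69 and 270.09 FPKM of NtGSTU20 and 195.33, 40.94 and 94.08 FPKM of NtGSTU35. Va116 root had 312.12, 117.54 and 207.24 FPKM of NtGSTU20 and 194.42, 54.65 and 76.71 FPKM of NtGSTU35. VxG88 root had 20.06, 124.1 and 289.17 FPKM of NtGSTU20 and 8.76, 72.63 and 116 FPKM of NtGSTU35. GDH88 root had 123.18, 61.75 and 119.03 FPKM of NtGSTU20 and 92.49, 54.68 and 79.16 FPKM of NtGSTU35. Library 1 was the highest for both copies in 5 of 6 materials, all but VxG88. VxG88 library 1 was the lowest root library for both copies and Hongda library 1 the highest, and the copies put the libraries of every material but HxB in the same order.

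By mean FPKM in root NtGSTU20 ran from Basma (255 ± 147, SD, n = 3) through HxB (248 ± 70.3), Va116 (212 ± 97.4), Hongda (184 ± 206) and VxG88 (144 ± 136) to GDH88 (101 ± 34.3), and each step was smaller than the larger SD of the materials beside it. The step to GDH88 was larger than the SD of GDH88 itself. The order for NtGSTU35 was Hongda (117 ± 154), Basma (110 ± 78.4), Va116 (109 ± 75.1), HxB (107 ± 48.7), GDH88 (75.4 ± 19.2) and VxG88 (65.8 ± 53.9). The materials were not separated by limma's F test in root, at an unadjusted p of 0.435 for NtGSTU20 and 0.804 for NtGSTU35, where 0.307% of all genes were called. In stalk the unadjusted p was 0.282 for NtGSTU20 and 0.902 for NtGSTU35, with 0.403% of genes called. In leaf NtGSTU35 had an unadjusted p of 0.906, with 1.60% of genes called, and NtGSTU20 was not tested because no leaf library reached 1 FPKM. The interaction of tissue and material had an unadjusted p of 0.541 for NtGSTU20 and 0.961 for NtGSTU35, with 0.458% of genes called. None of these 7 tests passed at an adjusted p under 0.05, the smallest adjusted p among them was 0.9999, and in root 1 material against the other 5 had an SE of 0.675 for NtGSTU20 and 0.741 for NtGSTU35 on the log2 scale.

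GDH88 had the lowest ratios of NtGSTU20 to NtGSTU35 in root, 1.13 to 1.504 against 1.43 to 3.78 over the other 5 materials, and the sets overlapped. GDH88 library 2, with the lowest ratio, is one of the 5 libraries closest to another material. The ratio in the other materials had means of 2.57 ± 1.06 in HxB, 2.46 ± 0.43 in Basma, 2.16 ± 0.41 in VxG88, 2.15 ± 0.55 in Va116 and 1.99 ± 0.60 in Hongda, against 1.32 ± 0.19 in GDH88 (SD, n = 3 each), and these differences were not tested.

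Over the 18 root libraries the copies varied together. Pearson's r of the FPKM values was 0.903 and Spearman's rho 0.926, each with a permutation p of 1e-05, the smallest that 100000 resamples can give, and adjusted p of 3e-05 over 3 tissues. Leaving out the 2 most extreme libraries by distance from the NtGSTU20 median gave an r of 0.865. With each library taken as its difference from the mean of its material on the log2(FPKM + 1) scale, r was 0.961 and rho 0.959. NtGSTU35 was rank 3 of 35247 genes in likeness to NtGSTU20 over root libraries on that log2 scale (r 0.930), and 14 genes reached an r of 0.9 with it, while the median over all genes was 0.29. From the side of NtGSTU35, NtGSTU20 ranked 16 and 102 genes reached an r of 0.9. The levels of the copies in root moved with the number of genes at 1 FPKM or more in the library, with an r over 18 libraries of 0.700 for NtGSTU20 and 0.801 for NtGSTU35, and its part in their joint variation was not tested. How fragments that match both copies were assigned is unknown, and their part in the root correlation was not tested either.

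**Figure D4:**
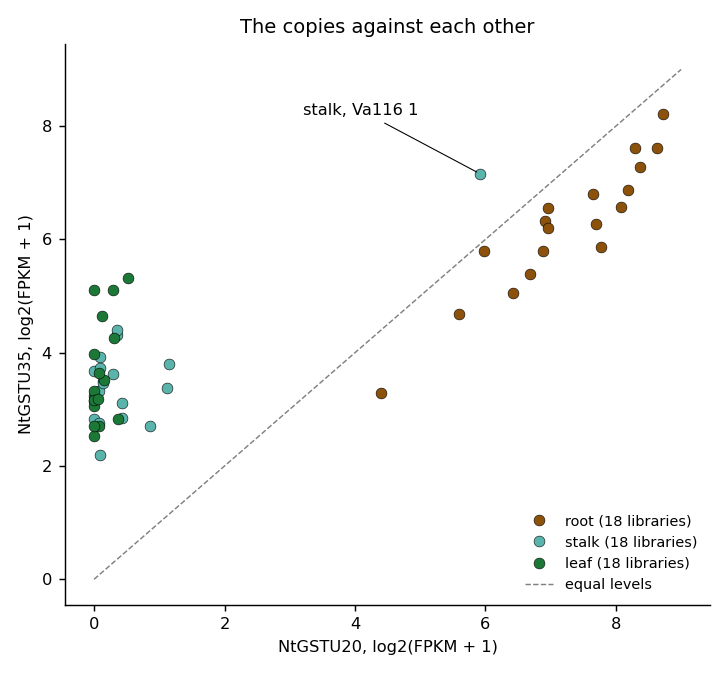
NtGSTU35 against NtGSTU20 as log2(FPKM + 1), 1 point per library, with the dashed line of equal levels. The 18 root libraries follow a line (r 0.903 on the FPKM scale), the leaf and most stalk libraries stand at the left with NtGSTU20 near 0, and stalk library Va116 1 lies apart from both.

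In leaf the correlation was weaker, with r 0.562 (permutation adjusted p 0.0240) and rho 0.389 (permutation adjusted p 0.163), over NtGSTU20 values of at most 0.43 FPKM. It rested on the libraries of column number 1 and was -0.13 without them. In stalk r was 0.990 (permutation adjusted p 0.0240) and rho 0.265 (permutation adjusted p 0.287), and the relation rested on library Va116 1: r was 0.03 (permutation adjusted p 0.920) without it. In leaf the NtGSTU35 values of library 1 were 39 FPKM in Hongda, 33.46 in Basma, 33.31 in VxG88, 24 in HxB and 18.17 in Va116, each above the other 2 libraries of its material. GDH88 leaf, with 8.44, 8.99 and 10.39 FPKM, did not show this.

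Stalk library Va116 1 stood apart for both copies. It had 59.38 FPKM of NtGSTU20, where the other Va116 stalk libraries had 0.05 and 0.82 FPKM and the next highest of all stalk libraries 1.21 FPKM (HxB 1). It had 141.98 FPKM of NtGSTU35, where the other Va116 stalk libraries had 5.79 and 5.5 FPKM and the next highest of all 20.06 FPKM (Hongda 3). These are 49.1 and 7.08 times the next highest stalk value. The ratio of NtGSTU20 to NtGSTU35 there, 0.418, was the highest in stalk and below the lowest root ratio of 1.13. The pair were the only Tau members of 40 with at least 10 FPKM and 5 times the next highest stalk library in it. Over all genes 81 passed that rule in this library and 0 to 32 in each of the other 17. Among those, stalk GDH88 1 had 2 other Tau members past the rule, of 13 genes, and stalk Va116 2 had 1, of 32 genes. The rule was set after the library had been seen.

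Other genes that are high in root were looked up in the same library, by rules set after it had been seen. Of 143 genes besides NtGSTU20 with a median of at least 20 FPKM in root and under 0.5 FPKM in leaf and in the other stalk libraries, 9 reached 1 FPKM in it, with a median of 0 and a sum of 0.405% of the root medians. In the other stalk libraries 1 to 15 of the 143 reached 1 FPKM, and the sums were 0.123% to 5.21%. Of 15 Tau members besides the pair with a root median of at least 20 FPKM, 3 were above the median of the other 17 stalk libraries in it and 0 above all of them. Their values in it were 0 to 31.7 FPKM (median 2.21), and NtGSTU32 stood highest relative to that median, with 3.78 against 0.48 FPKM. It matched its own label in the comparison of materials. Over all genes at 1 FPKM or more in a stalk library, 9.25% had their highest stalk value in it, and of the 40 Tau members 4 did: the pair, NtGSTU21 with 5.61 FPKM against 2.78 FPKM in the next library, and NtGSTU3 with 0.11 against 0.08 FPKM. The 40 were not filtered by level and include members, NtGSTU3 among them, under 1 FPKM in every stalk library, so the sets are unlike.

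**Figure D5:**
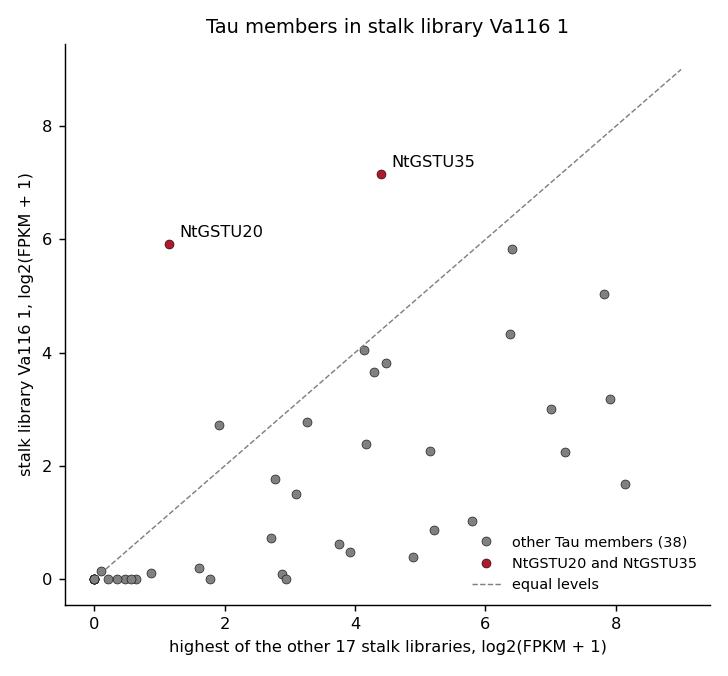
Tau members in stalk library Va116 1 (vertical axis) against their highest value in the other 17 stalk libraries (horizontal axis), both as log2(FPKM + 1), with the dashed line of equal levels. NtGSTU20 (59.38 against 1.21 FPKM) and NtGSTU35 (141.98 against 20.06 FPKM) stand far above the line, and most of the other 38 members lie on or below it.

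The genes whose pattern was most like each copy were found over the 18 means per tissue and material of log2(FPKM + 1), among 36844 genes with a mean of at least 1 FPKM. For NtGSTU20 the closest NtGST members were NtGSTU3 (r 0.985), NtGSTU35 (r 0.982) and NtGSTU4 (r 0.982), and 821 genes reached an r of 0.95. Among all genes these members were at ranks 62, 113 and 114. NtGSTU3 averaged 13.4 FPKM in root, with 0.0233 for stalk and 0.0461 for leaf, a root pattern at a lower level. The closest identifiers outside the family were Nitab4.5_0003029g0020 (r 0.992) and Nitab4.5_0000795g0060 (r 0.991). For NtGSTU35 the closest members were NtGSTU20 (r 0.982), NtGSTU3 (r 0.964) and NtGSTU12 (r 0.9499), and NtGSTU20 was rank 2 among all genes. The closest identifiers outside the family were Nitab4.5_0001342g0100 (r 0.986) and Nitab4.5_0010439g0040 (r 0.981), and 355 genes reached an r of 0.95. These values describe 3 tissues that differ strongly and carry no test.

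The genes that share a scaffold with each copy had varied tissue patterns, and some were alike between the 2 scaffolds. On the scaffold of NtGSTU20 the next gene is another Tau member, NtGSTU21, with 3.17 FPKM in root (SD 2.88), 1.71 in stalk and 3.69 in leaf on average, and it did not pass the test in root over leaf (log2 fold change 0.26, adjusted p 0.417). The identifier before NtGSTU20, Nitab4.5_0000505g0090, was listed at 0 in every library. The gene 2 places before NtGSTU20, Nitab4.5_0000505g0080, averaged 0.201 FPKM in root, 2.72 in stalk and 176 in leaf. Its log2 fold change in root over leaf was -6.81 (adjusted p 5.73e-28). The gene 2 places after, Nitab4.5_0000505g0120, did not pass that test (log2 fold change 0.08, adjusted p 0.823). It was higher in root than in stalk (log2 fold change 3.80, limma adjusted p 2.60e-16). The genes 3 places away on each side, Nitab4.5_0000505g0070 and Nitab4.5_0000505g0130, were higher in root than in leaf, by log2 fold changes of 0.89 and 1.39. The genes 2 and 3 places away were named after their values had been seen. Of the 17 other genes of that scaffold 12 were tested, 5 were higher and 3 lower in root than in leaf, beside 36.4% higher and 37.0% lower over all genes, and the largest log2 fold change was 1.39. On the scaffold of NtGSTU35 the preceding identifier, Nitab4.5_0000639g0230, averaged 0.188 FPKM in root and 116 FPKM in leaf (log2 fold change -6.11, adjusted p 2.43e-25). The following one, Nitab4.5_0000639g0250, averaged 8.26 FPKM in root and 9.97 FPKM in leaf (log2 fold change -0.23, adjusted p 0.0075). The genes 2 places away on each side, Nitab4.5_0000639g0220 and Nitab4.5_0000639g0260, were higher in root than in leaf, by log2 fold changes of 1.45 and 0.87, and were named after their values had been seen. In root, stalk and leaf Nitab4.5_0000639g0220 averaged 21.3, 11.5 and 6.33 FPKM, beside 17.1, 10.3 and 5.56 for Nitab4.5_0000505g0130. Nitab4.5_0000639g0260 averaged 1.22, 0.397 and 0.104 FPKM, beside 1.10, 0.532 and 0.0544 for Nitab4.5_0000505g0070. The likeness between the scaffolds was not tested. NtGSTU34, a Tau member of the same scaffold, was lower in root, with 3.14 FPKM against 10.1 FPKM in leaf (log2 fold change -1.45, adjusted p 1.13e-13). Of the 25 other genes there 18 were tested, with 7 higher and 7 lower in root than in leaf and a largest log2 fold change of 1.64, below the 2.60 of NtGSTU35.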

How the data were processed

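RNA of root, stalk and leaf was sequenced for the authors by a company, on Illumina instruments. The submitters' notes name HISAT2, StringTie and RSEM. Tool versions, settings and the genome build were not given in the sources. The authors deposited FPKM values, 1 table per tissue with 1 column per library. With sums this even, the unit could be TPM. Low values did not fall on whole steps (17.9% of 33155 ratios within 0.1 of a whole number, 20% without steps), so no reads were recovered. Columns were assigned to material and tissue by name.

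For log2(FPKM + 1), limma 3.58.1 (R 4.3.3) fitted tissue together with material and a variance trend; genes entered with 1 FPKM or more in 3 or more libraries. Materials were compared within tissues by F tests. Benjamini-Hochberg adjustment ran over all genes tested, with calls under 0.05. Ratios were tested by exact sign flips over 6 materials, and correlations by permutation (100000 resamples), in Python 3.11.15 with scipy 1.17.1. Plots were drawn with matplotlib 3.10.9. The tissue fit was tried on simulated data with independent normal noise around 1 mean per gene, shifted in root for some genes. Single outlying libraries and likeness between equally numbered columns were not modelled there. P-values of the limma fits and the correlations measure the spread between these libraries, and those of the sign flips the spread over materials.

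Members, lists and tests were chosen with earlier results of these data known. The named genes are the pair, Tau members next to it in level, the members and identifiers most alike, scaffold neighbours, and the pairs with the largest and smallest change of ratio. The members named for their values in stalk library Va116 1 were chosen after their values had been seen. Alternatives covered constants, filters, scalings, the trend, a replicate block and left-out libraries, and the fit without the 5 libraries closest to another material was added after seeing the data.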

Additional observations from a re-analysis of the deposited data

How the results depend on the processing

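Of 308 alternative values over 22 results, 272 counted as the same as the main value. Differences and correlations had to keep their direction and their side of the threshold. F tests had to keep their side of the threshold, and counts of Tau members had to stay near the main count. Among the 272 were every value for root over leaf and root over stalk of both copies, every test among materials, the interaction tests and the correlation in root. NtGSTU20 was not tested when 1 FPKM was required in 27 or more of the libraries. That filter left 22 Tau members, of which 19 were called in root over leaf and 20 in root over stalk, against 36 of 39 in both. Over all genes of the main fit, 36.4% were higher and 37.0% lower in root over leaf. In root over stalk these shares were 26.5% and 40.6%. No shares over all genes are given for the stricter filter. NtGSTU20 in stalk over leaf was called with a constant of 0.1 (1.29) and 0.01 (2.43). NtGSTU35 in stalk over leaf, never called, changed sign without Hongda (0.0154), without VxG88 (0.0358) and without the 5 libraries closest to another material (0.0224), and ran from -0.29 to 0.31 when the libraries of 1 column number were left out.

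The exact test of the log2 ratio cannot go below p 0.0625 with 5 materials. Without Basma, GDH88, HxB, Hongda, VxG88 or Va116 in turn, the ratio in root over leaf was 4.495, 4.69, 4.47, 4.45, 4.48 or 4.56, in root over stalk 3.83, 4.02, 3.93, 3.90, 3.91 or 4.15, and in stalk over leaf 0.67, 0.67, 0.54, 0.55, 0.58 or 0.42. In stalk over leaf it also lost its call with a constant of 0.1 (1.34) or 0.01 (2.47) and without the 5 libraries (0.55). With 1 column number left out it ran from -0.027 to 0.95, from 4.19 to 4.92 in root over leaf and from 3.69 to 4.21 in root over stalk. The correlation ran from -0.13 to 0.72 in leaf, from -0.22 to 1.00 in stalk and from 0.81 to 0.96 in root, and was 0.027 in stalk without library Va116 1. Column number 1 set the low ends in leaf and stalk.

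Libraries of 1 material with the same column number in different tissues deviated together weakly or not at all. The mean r was 0.08 for root and leaf, -0.02 for root and stalk and 0.18 for stalk and leaf (highest 0.44). The main tests did not read the numbers as a pairing. Within a tissue, libraries of different materials with the same number had a mean r of 0.35 in leaf, 0.13 in root and -0.02 in stalk. With a replicate block the log2 ratio in stalk over leaf, 0.57, had a permutation adjusted p of 0.0513, and the block changed no other call. The depth is unknown, and values of NtGSTU20 under 1 FPKM cannot be ranked among themselves.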

Other observations

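Stalk library Va116 1 also had the highest stalk value of 6 NtGST members outside the Tau class, named after their values had been seen. NtDHAR2 and NtDHAR1, dehydroascorbate reductases that regenerate ascorbate with glutathione, had 253 and 188 FPKM there, against medians of 155 and 118 FPKM over the other 17 stalk libraries. NtGSTL3 and NtGSTL1 of the Lambda class had 25.4 and 2.02 FPKM against 5.14 and 0.42 FPKM. NtGSTZ4 of the Zeta class had 40.1 against 25.1 FPKM, and NtTCHQD2 11.8 against 7.63 FPKM. The next highest stalk libraries had 207 FPKM of NtDHAR2, 152 of NtDHAR1, 16.0 of NtGSTL3, 1.29 of NtGSTL1, 39.7 of NtGSTZ4 and 11.5 of NtTCHQD2, so the lead was small for NtGSTZ4 and NtTCHQD2. In all, 10 of 59 NtGST members (16.9%) had their highest stalk value in this library, beside 9.25% of all genes at 1 FPKM or more in a stalk library, and 1 library allows no test. The 59 were not filtered by level and include members under 1 FPKM in every stalk library, so the shares are of unlike sets.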
